A study of Mus musculus with 2 samples.

Results

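The genes described here are 32 genes of the endoplasmic reticulum (ER) that fold secreted proteins, remove misfolded ones or sense folding stress. They were chosen by name, as genes of the ATF6 and XBP1 branches of the unfolded protein response, and all 32 were found by gene symbol among the 54680 loci of the deposited table. RNA was sequenced from CT26, a mouse colon cancer cell line. In the knockdown group, cells were infected with lentivirus carrying a short hairpin RNA against Setdb1, a histone H3 lysine 9 methyltransferase, and the labels call these cells differentiated. In the control group, given the genotype wild type in the labels, cells were infected with the empty knockdown vector. Both were grown for 6 days in RPMI 1640 medium with serum and were collected by trypsinization. Each group had 1 library, so no difference below has a replicate check, and all values describe these libraries rather than the conditions.

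Proteins that enter the secretory pathway pass through the Sec61 channel into the ER, where chaperones, lectins and disulfide-forming enzymes fold them. When unfolded protein builds up, 3 sensors respond: IRE1, which splices the Xbp1 transcript, ATF6, which is cut in the Golgi to free a transcription factor, and PERK, which slows translation and raises ATF4. ATF6 and XBP1 switch on chaperone and degradation genes, whereas ATF4, which other kinases also raise when amino acids are short, switches on genes of amino acid synthesis and transport. The comparison therefore asked whether ER folding genes differed between the libraries in the same way as amino acid response genes.

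Levels are in FPKM, fragments per kilobase of gene model scaled to 1 depth used for both libraries. FPKM ratios therefore carry the 1.03 ratio of the library totals, knockdown over control. Every pair of values is given with the control first and the knockdown second. Whole reads recovered from the FPKM values summed to 18421604 and 19045830. Setdb1 was at 10.4 and 2.47 FPKM, which left 23.7% of the control level, although its gene model overlaps Cers2. Of 10 epithelial markers, Epcam, Cdh1 and Lgr5 had 0 reads in both libraries and 3 genes (Krt18, Krt19 and Krt20) reached 1 FPKM in at least 1 library, each at least 2-fold higher in the knockdown library. All 6 mesenchymal markers passed this level, with Fn1 highest in ratio (381 and 534 FPKM, log2 ratio 0.49) and Snai2 lowest (9.59 and 1.66 FPKM, log2 ratio -1.99). Vim was also higher (0.15), and Col1a1 (-0.41), Zeb1 (-0.15) and Cdh2 (-0.15) were lower. The part of these markers in the ER gene differences was not tested. None of 6 leukocyte or 4 endothelial markers reached 1 FPKM, with 24 and 25 reads over the leukocyte list. In bulk RNA, fewer cells of a kind and less RNA per cell cannot be told apart.

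The ER genes did not move as a block. The 5 disulfide-forming enzymes among them, calreticulin and the small ER proteins Sdf2l1 and Creld2 were higher in the knockdown library. The chaperone BiP, the sensors Ern1 and Atf6, and Herpud1 were lower. Of the 32 genes, 31 reached 1 FPKM in at least 1 library, the filter used for all counts. Each log2 ratio sets (FPKM + 1) in the knockdown against (FPKM + 1) in the control, so changes of low genes are understated. On that scale 14 of the 31 were higher and 17 lower, with a median of -0.20 and quartiles of -0.39 and 0.48, beside a median of -0.00039 and quartiles of -0.36 and 0.38 over all 10671 genes that passed the filter. The mean over the 31 was 0.0240, on the other side of 0 from the median.

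At least 2-fold higher were 3 of the 31 (9.68%), namely P4hb, Ero1l and Sdf2l1, against 6.81% of all genes. At least 2-fold lower were 2 (6.45%), Hspa5 and Herpud1, against 4.85% of all genes. At 1.5-fold the counts were 6 higher (19.4%), against 16.9% of all genes, and 4 lower (12.9%), against 14.3%. These shares are near the background, so the number of differing genes is not a result about the ER genes, and what follows describes which of them differed.

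Counting error was small for most of these genes. The interval printed after a read ratio is its 95% Clopper-Pearson (exact binomial) interval, with reads taken relative to the library totals. It reflects counting error alone and takes each read as a separate molecule. PCR copies are not separate molecules, so the interval may be too narrow. The interval lay above 1 for 13 genes and below 1 for 16, and it held 1 for Manf and Derl2. The remaining gene, Derl3, had 6 reads in each library. The share of all genes whose interval leaves out 1 was not computed, so these counts are not a result about the ER genes.

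**Figure D1:**
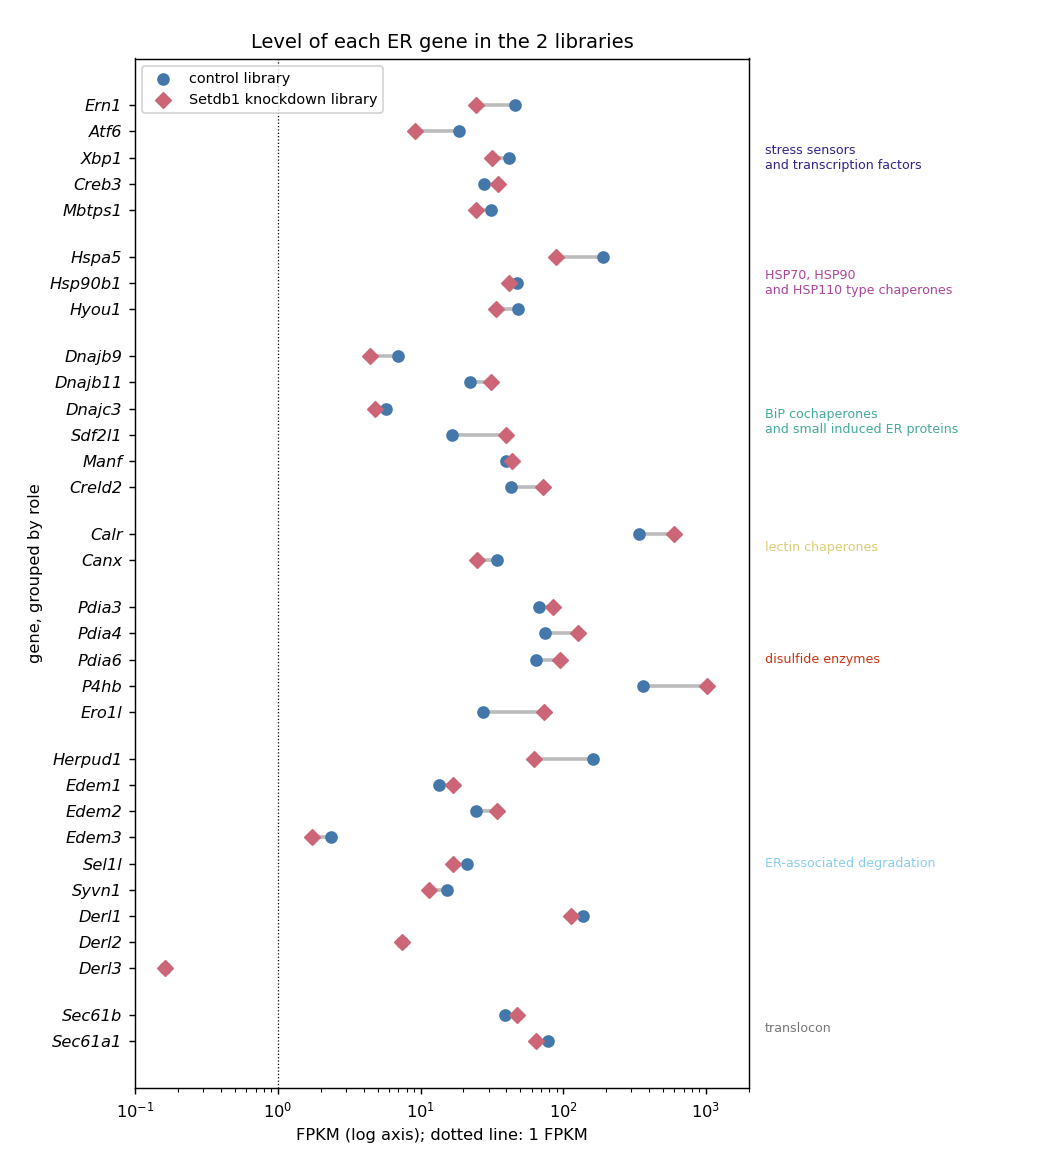
Level of each of the 32 ER genes in FPKM on a log axis, with circles for the control library and diamonds for the Setdb1 knockdown library, grouped by role. All 5 disulfide enzymes lie to the right in the knockdown library and all 3 HSP-type chaperones to the left, and Derl3 is alone below 1 FPKM.

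Among the sensors and transcription factors, 4 of 5 were lower in the knockdown library. Ern1 (ENSMUSG00000020715, chromosome 11, 106394650 to 106487852), which encodes the IRE1 kinase and RNase, was at 46.1 and 24.6 FPKM (7062 and 3765 reads). Its log2 ratio was -0.88 and its read ratio 0.516 (0.496 to 0.537). Atf6 (ENSMUSG00000026663, chromosome 1, 170704674 to 170867771) was at 18.7 and 9.11 FPKM (3236 and 1575 reads). Its log2 ratio of -0.96 fell just short of 2-fold, while the read ratio was 0.471 (0.443 to 0.500), and it passed 2-fold with a pseudocount of 0.1 (-1.03), with each library's own read total (-1.01) and with upper-quartile scaling (-1.01), but was at -0.80 after the GC and length correction.

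Xbp1, the transcription factor activated by IRE1 through splicing, was at 42.0 and 31.8 FPKM (log2 ratio -0.39). Gene-level values do not separate its spliced and unspliced forms. Mbtps1, the Golgi protease that makes the first cut in ATF6, was at 31.3 and 24.6 FPKM (log2 ratio -0.34). Creb3, a membrane-bound factor related to ATF6, was the only one of these 5 genes that was higher, at 27.8 and 34.9 FPKM (log2 ratio 0.32). The Creb3 model overlaps Tln1, which had 23709 and 19612 reads, and whether reads were counted by strand is not given in the sources used here. Over the 5 genes together, reads went from 20276 to 13681.

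The 3 large ATP-driven chaperones were all lower. Hspa5 (ENSMUSG00000026864, chromosome 2, 34771970 to 34777547) encodes BiP, the HSP70 of the ER and the gene most often used to report ER stress. It was at 189.9 and 88.7 FPKM (15042 and 7030 reads). Its log2 ratio of -1.09 was at percentile 3.72 among all genes, and its read ratio was 0.452 (0.439 to 0.465). Hyou1, an HSP110-type partner that exchanges nucleotide on BiP, was at 48.2 and 33.6 FPKM (log2 ratio -0.51). Hsp90b1, which encodes GRP94, was at 47.6 and 41.4 FPKM (log2 ratio -0.20). BiP thus differed more than both of these, whose read-ratio intervals, 0.648 to 0.700 and 0.802 to 0.883, lie above that of Hspa5.

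The cochaperones of BiP and the small ER proteins were split. Sdf2l1 (ENSMUSG00000022769, chromosome 16, 17130138 to 17132383), which works with ER J-domain proteins to keep substrates soluble, was at 16.7 and 39.7 FPKM (347 and 824 reads), with a log2 ratio of 1.20 and 2.30 (2.02 to 2.61) times the reads. Corrected for GC content and length, its log2 ratio was 0.997, just under 2-fold. Creld2 (ENSMUSG00000023272, chromosome 15, 88819646 to 88826683), a small ER protein known as an ER stress marker, was at 42.8 and 72.3 FPKM (1094 and 1849 reads), a log2 ratio of 0.74. Dnajb11, the J-domain cochaperone ERdj3, was at 22.2 and 31.2 FPKM (log2 ratio 0.47).

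Other genes of the same group were level or lower. Manf, a secreted ER stress-induced factor that binds BiP, was at 39.9 and 43.5 FPKM, with a read-ratio interval of 0.999 to 1.11. The Manf model overlaps Rbm15b (2335 and 1626 reads) and Dcaf1 (678 and 364 reads). Dnajc3, which encodes the cochaperone p58IPK, was at 5.73 and 4.82 FPKM (log2 ratio -0.21). Dnajb9, which encodes ERdj4 and is a well-known XBP1 target, was at 6.93 and 4.42 FPKM (331 and 211 reads), a log2 ratio of -0.55. So Sdf2l1, Creld2 and Dnajb11 were higher in the library in which Hspa5 and Dnajb9 were lower.

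The lectin chaperones, which bind glycoproteins during folding, went in opposite directions. Calr (ENSMUSG00000003814, chromosome 8, 84841850 to 84846934), the soluble lectin calreticulin, was at 339 and 593 FPKM (18285 and 32004 reads). Its log2 ratio was 0.81 and its read ratio 1.69 (1.66 to 1.72). Canx, its membrane-bound relative calnexin, was at 34.2 and 24.97 FPKM (3005 and 2195 reads). Its log2 ratio was -0.44 and its read ratio 0.707 (0.668 to 0.747). The FPKM ratio of Calr to Canx was 9.92 and 23.8. Calreticulin and the oxidoreductase encoded by Pdia3 are also parts of the MHC class I peptide-loading complex. Of 8 other genes of peptide loading and MHC class I, 5 were higher, with a median log2 ratio of 0.93, from -0.57 for Erap1 (3.36 and 1.94 FPKM) to 1.948 for H2-K1 (29.7 and 117 FPKM). The part of the class I genes in the Calr difference was not tested.

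All 5 disulfide enzymes were higher, with a median log2 ratio of 0.76, and their summed reads went from 34002 to 79633. P4hb (ENSMUSG00000025130, chromosome 11, 120560298 to 120573253) encodes protein disulfide isomerase, which is also the beta subunit of collagen prolyl 4-hydroxylase. It was at 361 and 1026 FPKM (19357 and 54976 reads), with a log2 ratio of 1.503. Its read ratio was 2.75 (2.70 to 2.79), and it ranked first of the 32 genes by FPKM in both libraries. Ero1l (ENSMUSG00000021831, chromosome 14, 45283087 to 45318771), the oxidase that recharges protein disulfide isomerase and is known as a hypoxia-induced gene, was at 27.6 and 73.5 FPKM (2728 and 7280 reads). Its log2 ratio was 1.38 and its read ratio 2.58 (2.47 to 2.70).

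The other isomerases differed less. Pdia4 was at 74.9 and 127 FPKM (log2 ratio 0.76), Pdia6 at 64.8 and 95.2 FPKM (log2 ratio 0.55), and Pdia3, which works with the lectins, at 68.2 and 84.6 FPKM (log2 ratio 0.31). Their read-ratio intervals were 1.58 to 1.72, 1.37 to 1.48 and 1.15 to 1.25, so the 3 were separated by more than counting error and all lay below P4hb and Ero1l. Other genes of this kind, picked from a list of further ER folding enzymes, were split. Over that whole list, 22 genes passed the filter, of which 10 were higher and 12 lower. Qsox1 (0.77), Prdx4 (0.74) and Tmx1 (0.39) were higher, as was Erp29 (0.77) of the same list. Pdia5 (-0.78), Tmx3 (-0.53), Dnajc10 (-0.48), Txndc5 (-0.25), Txndc11 (-0.19) and Erp44 (-0.14) were lower. Ero1lb did not pass the filter, with 117 and 82 reads and a read ratio of 0.678 (0.505 to 0.907). Apart from Pdia5, these were named after their values were seen. The FPKM ratio of P4hb to Hspa5 was 1.90 and 11.6.

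P4hb also set the summed level of the group. The 32 genes took 0.776% (0.772 to 0.780) and 0.938% (0.934 to 0.943) of all reads. P4hb made up 13.5% and 30.8% of these reads. Without P4hb the sums were 123537 and 123722 reads, or 0.671% and 0.650% of the libraries.

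Hypoxia-responsive genes were also higher. The catalytic partners of P4hb in collagen hydroxylation were higher by more: P4ha1 was at 13.3 and 64.2 FPKM (log2 ratio 2.18) and P4ha2 at 4.20 and 51.4 FPKM (log2 ratio 3.33). Of 17 hypoxia-responsive genes in the list, which includes both partners, 15 reached 1 FPKM, all 15 were higher and 11 were at least 2-fold higher, against 6.81% of all genes, with a median log2 ratio of 2.001. Their ratios ran from 0.15 for Vegfa (47.8 and 53.3 FPKM) to 4.51 for Car9 (30 and 1626 reads). The part of these genes in the P4hb and Ero1l differences was not tested.

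ER-associated degradation draws misfolded proteins back to the cytosol for the proteasome. Of the 8 genes of this group that passed the filter, 6 were lower, Derl2 among them by less than counting error. Of all 10671 genes, 5336 were lower. Herpud1 (ENSMUSG00000031770, chromosome 8, 94386438 to 94395377), a membrane scaffold of the degradation complex, had the lowest ratio of all 31 genes. It was at 161 and 62.3 FPKM (7020 and 2723 reads). Its log2 ratio of -1.35 was at percentile 1.91 among all genes, and its read ratio was 0.375 (0.359 to 0.392). Syvn1, the ubiquitin ligase HRD1, was at 15.4 and 11.6 FPKM (log2 ratio -0.39), and Sel1l, its adaptor, at 21.2 and 16.9 FPKM (log2 ratio -0.31). Syvn1 overlaps Mrpl49, which had 825 and 1125 reads.

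The EDEM proteins, which trim mannose from misfolded glycoproteins, did not move together. Edem1 was at 13.4 and 17.0 FPKM (log2 ratio 0.32), Edem2 at 24.3 and 34.5 FPKM (log2 ratio 0.49), and Edem3 at 2.36 and 1.74 FPKM (282 and 208 reads, log2 ratio -0.29). The derlins are membrane proteins of the degradation channel. Derl1 was at 139 and 114 FPKM (log2 ratio -0.28), and Derl2 at 7.45 and 7.38 FPKM (log2 ratio -0.01), a difference within counting error. Derl3 was at 0.161 FPKM in both libraries, below the filter.

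The translocon genes differed little. Sec61a1, the channel subunit, was at 78.3 and 64.0 FPKM (log2 ratio -0.29), and Sec61b, a small accessory subunit, at 39.2 and 47.5 FPKM (log2 ratio 0.27). Both lay between the quartiles of all genes.

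**Figure D2:**
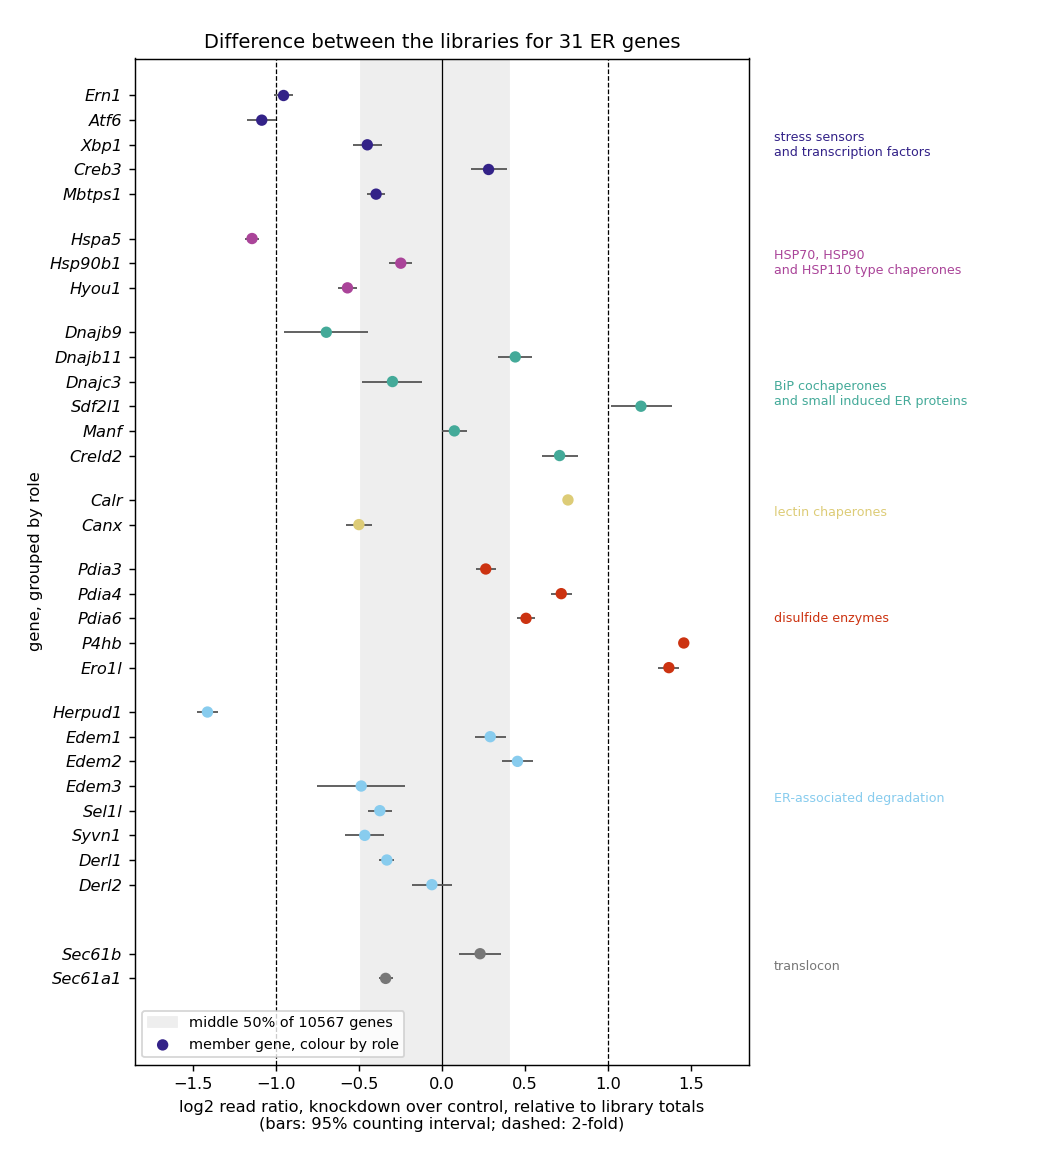
Read ratio of the 31 ER genes at 1 FPKM or more, knockdown over control relative to library totals, on a log2 axis, with bars for the 95% counting interval and colours for the role. The grey band runs between the quartiles of 10567 genes with reads in both libraries (-0.49 to 0.40). P4hb, Ero1l and Sdf2l1 lie beyond the right dashed 2-fold line and Herpud1, Hspa5 and Atf6 beyond the left one.

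The order of levels changed in the middle of the list. P4hb and Calr ranked first and second of the 32 genes by FPKM in both libraries. Hspa5 and Herpud1 ranked 3 and 4 in the control library and 6 and 11 in the knockdown library. Pdia4 went from 7 to 3, Ero1l from 20 to 8 and Sdf2l1 from 25 to 15, while Ern1 went from 12 to 23. Hyou1 and Hsp90b1, neighbours at 48.2 and 47.6 FPKM in the control library, stood at 33.6 and 41.4 FPKM in the knockdown library.

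Promoter sequence was examined because ATF6 and XBP1 are known to act through short elements close to the start of their target genes. Windows from 250 bases before to 50 bases after the start were taken from RefSeq (GRCm38.p6), where 27 of the 32 genes had an entry and Atf6, Hyou1, Manf, Derl1 and Sec61a1 did not. The ER stress element, searched on both strands as CCAAT followed after any 9 bases by CCACG, was in 9 of the 27 genes and in 0.119% of all 32851 promoter windows. The 9 were Hspa5, Hsp90b1, Dnajc3, Creld2, Calr, Canx, Pdia6, Syvn1 and Derl3. The windows of 7 that passed the filter are shown with both parts of the element in capitals, on the strand of the gene. The first 4 were lower and the last 3 higher in the knockdown library.
Hspa5 (chr2:34772017-34772051, plus strand, log2 ratio -1.09): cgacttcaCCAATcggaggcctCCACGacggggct
Canx (chr11:50325792-50325826, minus strand, log2 ratio -0.44): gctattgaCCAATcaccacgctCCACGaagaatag
Syvn1 (chr19:6046524-6046558, plus strand, log2 ratio -0.39): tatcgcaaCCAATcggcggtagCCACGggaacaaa
Dnajc3 (chr14:118937819-118937853, plus strand, log2 ratio -0.21): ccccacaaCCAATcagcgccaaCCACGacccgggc
Pdia6 (chr12:17266483-17266517, plus strand, log2 ratio 0.55): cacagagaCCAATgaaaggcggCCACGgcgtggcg
Creld2 (chr15:88819512-88819546, plus strand, log2 ratio 0.74): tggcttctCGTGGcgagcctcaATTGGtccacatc
Calr (chr8:84847067-84847101, minus strand, log2 ratio 0.81): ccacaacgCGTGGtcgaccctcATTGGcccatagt

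In Creld2 and Calr the element reads on the opposite strand, so that its parts appear as CGTGG and ATTGG. Hsp90b1 held 2 elements, 1 on each strand, which begin 212 and 107 bases before the start. Of the 8 genes with the element at 1 FPKM or more, 3 were higher and 5 lower, with a median log2 ratio of -0.20. Of the 18 genes with a RefSeq window but without this exact element, 10 were higher and 8 lower, with a median of 0.29. A match is a description of the letters and not evidence of binding. The part of the element in these differences was not tested.

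Other elements were rarer or less specific. The second ER stress element, searched as ATTGG and CCACG separated by any 1 base, was in Dnajb11 and Herpud1 and in 0.0365% of all windows. The XBP1-type element TGACGTGG was in none of the 27 genes and in 0.676% of all windows. The amino acid response element TTGCATCA, a C/EBP-ATF site of the kind through which ATF4 acts, was in Herpud1 alone among the 27 and in 0.895% of all windows. The hypoxia response core ACGTG was in 12 of the 27 genes, P4hb and Ero1l among them, and in 19.6% of all windows. Creb3, Calr, Pdia6 and Edem2 also held it and were higher in the knockdown library. Hspa5, Dnajb9, Dnajc3, Herpud1 and Edem3 held it and were lower, and Derl3 held it but was below the filter. The part of this core in the differences was not tested. In Herpud1 that core overlaps the second ER stress element. The windows of Herpud1, the gene with the lowest ratio, and of Ero1l and P4hb, the genes with the highest, are shown with the elements in capitals: in Herpud1 the amino acid response element and then the second ER stress element, in Ero1l and P4hb the hypoxia core.
Herpud1 (chr8:94386309-94386395, plus strand, log2 ratio -1.35): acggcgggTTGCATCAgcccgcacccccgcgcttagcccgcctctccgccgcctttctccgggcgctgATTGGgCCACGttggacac
Ero1l (chr14:45318623-45318643, minus strand, log2 ratio 1.38): cgccgctgCACGTccgcaggg
P4hb (chr11:120573206-120573317, minus strand, log2 ratio 1.503): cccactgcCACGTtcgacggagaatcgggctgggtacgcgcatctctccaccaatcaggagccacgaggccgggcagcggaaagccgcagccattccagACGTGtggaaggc

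**Figure D3:**
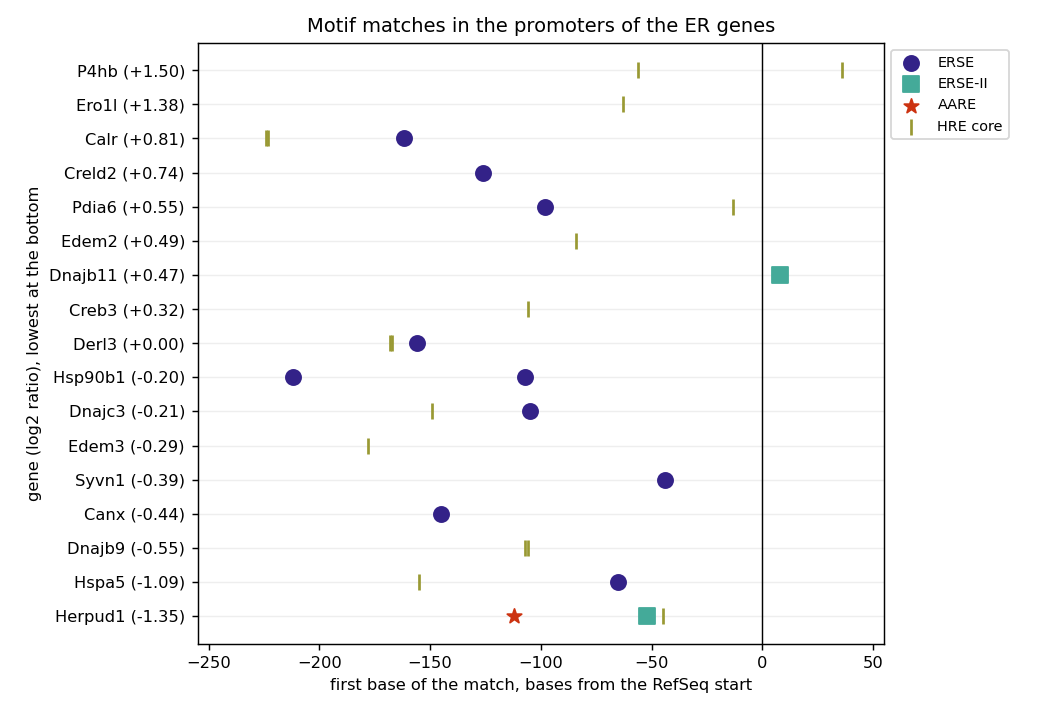
First base of each motif match in the promoter windows of the 17 ER genes with a match, in bases from the RefSeq start, with genes ordered by log2 ratio and 1 symbol per kind of element. The ER stress element (ERSE) occurs from Hspa5 at -1.09 to Calr at 0.81, and the amino acid response element (AARE) stands only beside Herpud1, the lowest gene.

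Genes of the ATF4 branch were mostly lower, unlike the ER genes. Of 39 listed genes, ATF4 and its amino acid response targets, 37 reached 1 FPKM and 35 of these were lower in the knockdown library. The median log2 ratio was -1.42, and 27 of the 37 (73.0%) were at least 2-fold lower, against 4.85% of all genes and 2 of the 31 ER genes. Their summed reads went from 388714 to 144168, whereas those of the ER genes went from 142894 to 178698. Without P4hb the ER sums were 123537 and 123722 reads, or 0.671% and 0.650% of the libraries. The lists were chosen with earlier results of these data known, so the counts describe them and do not test them.

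Atf4 itself was at 479 and 178 FPKM (21170 and 7858 reads, log2 ratio -1.42). Asns, asparagine synthetase, was at 424 and 129 FPKM (log2 ratio -1.71). Trib3, a pseudokinase induced by ATF4, was at 362 and 41.6 FPKM (log2 ratio -3.09). Chac1, which breaks down glutathione, was at 84.8 and 20.4 FPKM (log2 ratio -2.00). Ddit3, which encodes the stress factor CHOP, was at 94.7 and 45.1 FPKM (log2 ratio -1.06), and its model overlaps Mars (6701 and 4085 reads). The lowest ratio was that of the glycine transporter gene Slc6a9 at -3.29 (41.7 and 3.35 FPKM), and the highest that of Ddit4 at 1.35 (45.3 and 117 FPKM). Ddit4 is also known as a hypoxia-induced gene.

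Eif2ak3, which encodes the sensor PERK, was at 3.88 and 5.02 FPKM (438 and 567 reads). Its log2 ratio was 0.30 and its read ratio 1.25 (1.10 to 1.42). It was thus higher in the library in which Ern1, Atf6 and 35 of the 37 genes of the ATF4 list were lower. Among the 6 further transducers that passed the filter, Eif2ak3 included, 3 were higher and 3 lower, with a median of -0.15. Their ratios ran from Atf6b at -0.51 (62.7 and 43.6 FPKM) to Traf2 at 0.70 (18.6 and 30.7 FPKM). Of the transcripts described as cut by IRE1, the 6 that passed the filter had ratios above 0, with a median of 0.23, from Pdgfrb at 0.10 (13.5 and 14.6 FPKM, a difference within counting error) to Scara3 at 1.29 (3.65 and 10.3 FPKM). Bloc1s1, the target best known of these, had 6 and 8 reads and did not pass.

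**Figure D4:**
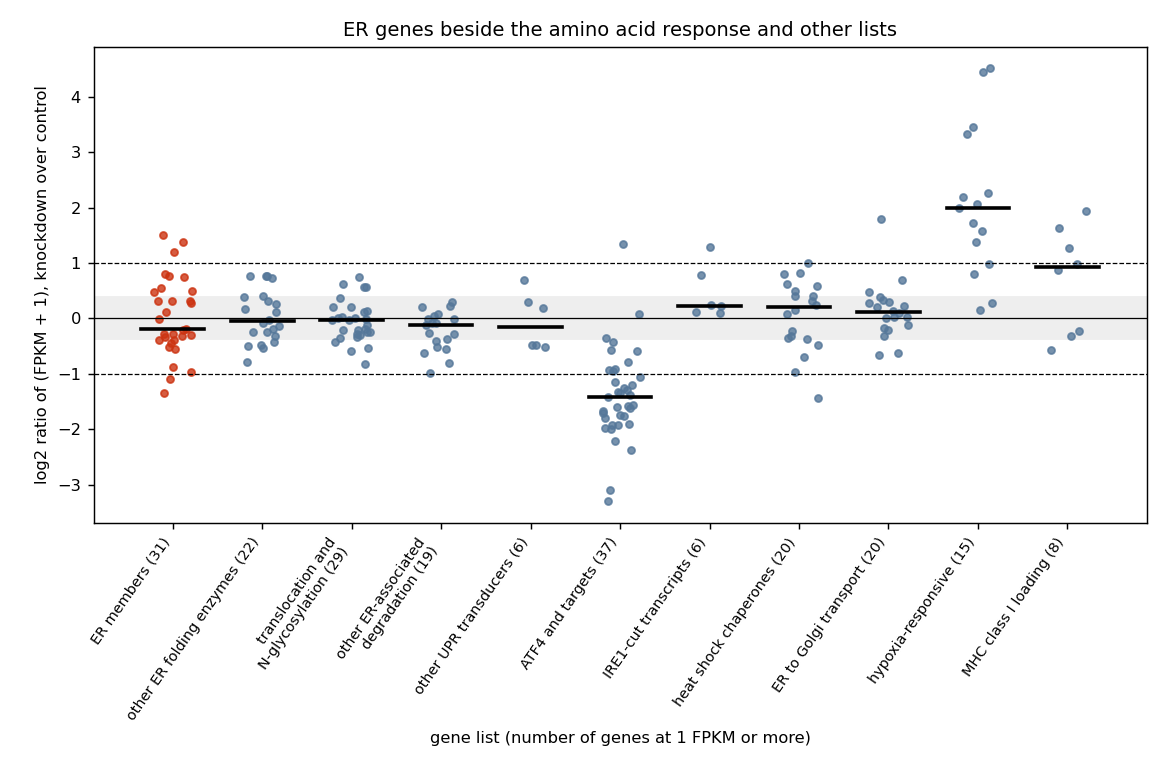
Log2 ratio of (FPKM + 1), knockdown over control, for each gene at 1 FPKM or more in the ER genes (red) and in 10 other lists, with black bars for medians, a grey band between the quartiles of all genes and dashed lines at 2-fold. ATF4 and its targets sit mostly below the lower line (median -1.42) and hypoxia-responsive genes mostly above the upper one (median 2.001), while the ER genes spread over both sides of 0.

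The wider ER machinery had medians near 0. Of 24 further folding enzymes, 22 passed the filter with a median of -0.06 (mean 0.0325) and none reached 2-fold, from Pdia5 at -0.78 (165 and 74 reads) to Fkbp7 at 0.77 (80 and 156 reads). All 29 genes of translocation and N-glycosylation passed, with a median of -0.04 and none at 2-fold, from Krtcap2, an oligosaccharyltransferase subunit, at -0.83 (169 and 94.4 FPKM) to Tusc3, another such subunit, at 0.74 (18.3 and 31.2 FPKM). Of 20 further degradation genes 19 passed, 14 of them lower, with a median of -0.12, from Erlec1, a lectin, at -0.99 (297 and 119 reads) to Os9, another lectin, at 0.29 (67.7 and 83.0 FPKM). Krtcap2 overlaps Trim46 (1253 and 437 reads) and Erlec1 overlaps Asb3 (186 and 238 reads). Over the 20 genes of transport between ER and Golgi the median was 0.11. The lowest of these was Tmed2, a cargo receptor, at -0.66 (63.7 and 39.8 FPKM).

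KDEL receptors return escaped chaperones such as BiP and calreticulin from the Golgi. Kdelr1 was at 130 and 151 FPKM (4555 and 5306 reads, log2 ratio 0.22), and Kdelr2 at 96.8 and 136 FPKM (log2 ratio 0.49). Kdelr3 was at 13.3 and 48.7 FPKM (352 and 1287 reads). Its log2 ratio was 1.795 and its read ratio 3.54 (3.14 to 3.99), and its model overlaps Ddx17 (7518 and 7785 reads). All 3 receptors were higher in the knockdown library, and Kdelr3 had the highest ratio of the transport list.

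**Figure D5:**
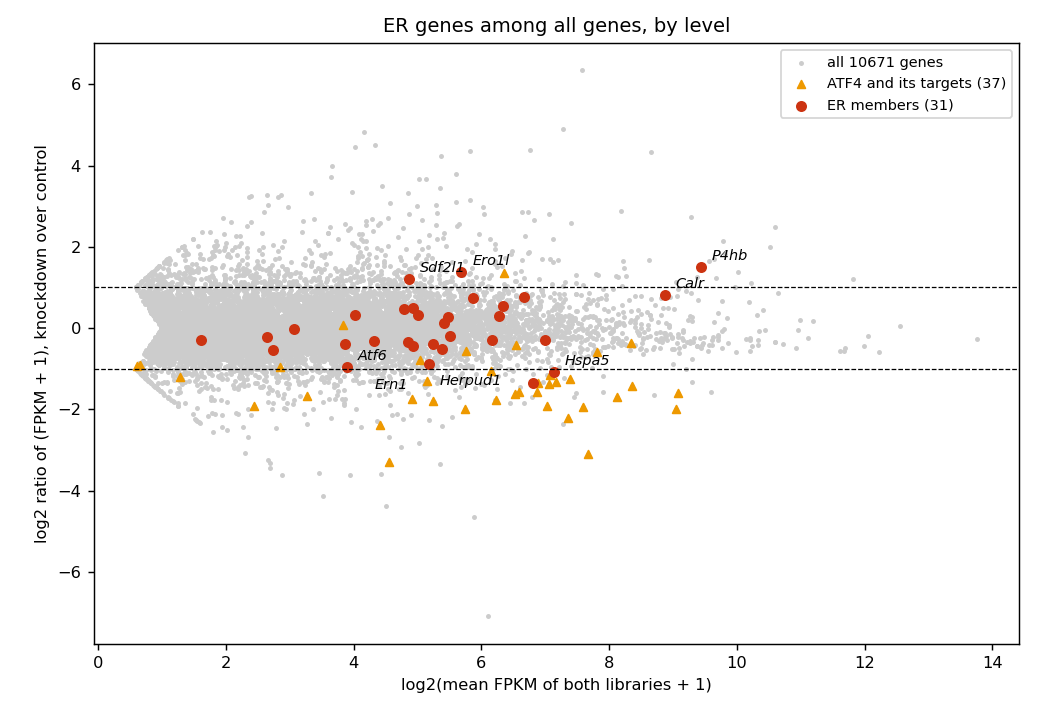
Log2 ratio of (FPKM + 1), knockdown over control, against the log2 of the mean FPKM of both libraries plus 1, for all 10671 genes (grey), the 37 genes of the ATF4 list (orange triangles) and the 31 ER genes (red). P4hb and Calr are the most abundant ER genes and lie above 0, while Hspa5 and Herpud1 lie below -1 among the ATF4 targets.

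Gene model length moved with the ratio among the ER genes. Of the 11 genes with a model over 5000 bases, 9 were lower in the knockdown library, Derl2 among them by less than counting error, and Ero1l and Edem1 were higher. Across the 31 genes Spearman's rho of ratio and length was -0.44, a description over genes of the same libraries, beside -0.10 over 10516 genes. After the correction for GC content and length the ratios were -1.45 for Herpud1, -1.01 for Hspa5, 1.38 for P4hb and 1.55 for Ero1l. The part of length in these differences was not tested. The models of 8 of the 32 overlap a gene that also has reads. For 6, other loci are matched to the same protein in the deposited table, and these loci held at most 92 reads (for Derl1).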

How the data were processed

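RNA-seq values of 2 CT26 libraries were used, 1 per group, and the columns carry the library names that the labels give. The authors deposited FPKM values with gene length and position. The submitters' processing notes name CASAVA, HISAT2, featureCounts 1.5.0-p3 and GRCm38. The strand setting is not given in the sources used here. All 32 genes had the same position in GENCODE M21 (GRCm38). FPKM times length gave whole reads (within 0.001) for 100% of values, and both libraries had been scaled by 1 depth of 18731117 reads, so FPKM ratios carry the 1.03 ratio of the totals.

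Log2 ratios used a pseudocount of 1. Genes below 1 FPKM in both libraries were left out of counts and medians. Without replicates there was no test. Where a symbol stood on several loci (Ddit3), the locus with most reads was used. All 32 genes are named. Of each other list the highest and lowest gene are named, with Eif2ak3, Atf4, Ddit3, Asns, Trib3, Chac1, Bloc1s1, the KDEL receptors, P4ha1 and P4ha2. Some further folding enzymes and heat shock chaperones are also named, chosen after their values were seen. The genes and lists were chosen with earlier results of these data known. The calculations were tested on simulated data. The GC and length correction (lowess, span 0.3, GC of the longest GENCODE transcript) was chosen after seeing the data. The tools were matplotlib 3.10.9, statsmodels 0.14.6, scipy 1.17.1, pandas 2.3.3 and numpy 2.4.6 in Python 3.11.15.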

Additional observations from a re-analysis of the deposited data

How the results depend on the processing

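No paired analysis was possible because the labels give a single library for either group, which also means that none could be left out. Over 16 results, 104 of 121 values under other settings were close to the main value (inside its counting error, or a count changed by no more than 1.5 times). Of these, the further folding enzymes changed sign, from a median of -0.06 to a mean of 0.0325. The ER gene median of -0.20 was -0.10 without a filter and with a filter at 5 FPKM, -0.0573 after the GC and length correction, and 0.0240 as a mean, so its direction is not settled. The counts of ER genes ran from 2 to 3 (2-fold higher), 2 to 3 (2-fold lower), 6 (1.5-fold higher) and 4 to 5 (1.5-fold lower). The shares of all genes moved too, lowest without a filter and highest with a pseudocount of 0.1. They ran from 1.33% to 10.6% (2-fold higher), 0.947% to 8.15% (2-fold lower), 3.63% to 20.3% (1.5-fold higher) and 2.99% to 18.8% (1.5-fold lower). With own read totals, 3 ER genes were 2-fold higher and 3 lower, against 6.35% and 5.37% of all genes. Upper-quartile scaling gave the same counts, against 6.30% and 5.41%. These counts are not a result about the ER genes.

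With a pseudocount of 0.1, Setdb1 was at -2.04 and the ATF4 list at -1.61. Without a filter, other transducers were at 0.0144, beside a main median of -0.15, and hypoxia genes were at 1.72. With the filter at 5 FPKM, other transducers were at 0.18 and the ATF4 list at -1.57. The transducer median thus changed sign under both of these settings, so its direction is not settled. After the GC and length correction, other transducers were at -0.0106, the ATF4 list at -1.53 and hypoxia genes at 1.87. As means, further degradation genes were at -0.23, IRE1-cut transcripts at 0.46, heat shock chaperones at 0.0550 and class I genes at 0.70. The cause was not tested, except that a smaller pseudocount widens ratios and the filters change which genes enter.

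Of 159 alternative values of the 32 ER genes, 128 stayed within counting error. Of the other 31, 21 came from the GC and length correction, under which 10 genes stayed within it. That correction changed the sign of Derl2 (0.19) and moved some ratios by over 1.5 times, among them Hsp90b1 (-0.06), Dnajc3 (-0.06), Sec61b (0.07), Creb3 (0.20) and Syvn1 (-0.60). With 1 library a group, depth cannot stand in for replicates.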

Other observations

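Chaperones outside the ER did not move together. Of 22 heat shock chaperone genes and their regulator, 20 passed the filter, with a median log2 ratio of 0.20. The 4 mitochondrial chaperones were all lower, with a median of -0.83: Hspd1 was at 194 and 71.2 FPKM (-1.43, the lowest of the list), Hspe1 at 179 and 91.7 FPKM (-0.96), Hspa9 at 251 and 154 FPKM (-0.70) and Trap1 at 74.4 and 57.7 FPKM (-0.36). Hspd1 and Hspe1 overlap each other and have pseudogene loci. Of the other 16, 12 were higher, with a median of 0.36. Dnajb1, a cochaperone of cytosolic HSP70, was highest at 0.99 (29.8 and 60.3 FPKM), Hsph1 was at 0.81 (9.46 and 17.3 FPKM) and Hspa8 at 0.49 (222 and 311 FPKM). The 4 lower ones were Hsf1 (-0.48), Hsp90aa1 (-0.35), Hspa4 (-0.31) and Chordc1 (-0.23). The division by compartment, and all of these but Hspd1 and Dnajb1, were chosen after their values were seen.

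The ER stress element was found in the promoter windows of 37 genes, of which 33 were in the table, 9 of them ER genes described above. Of the other 24, 5 reached 1 FPKM, of which Alg12 and Zfp57 were lower and Acacb higher by more than counting error. The 5 were Alg12, an ER mannosyltransferase (16.0 and 11.7 FPKM, log2 ratio -0.42), Zfp57 (-0.30), Hnrnpa3 (-0.09) and Pan2 (-0.09), both within counting error, and Acacb (468 and 971 reads, log2 ratio 0.83). They were named after their values were seen. Alg12 lies on chromosome 15, as Creld2 does, and whether their windows share 1 element was not examined.

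Markers of plasma cells, a cell type with a large ER, were followed because XBP1 is needed there. Mzb1 and Jchain had 0 reads in both libraries. Sdc1 had 420 and 1299 reads (log2 ratio 1.48), and Prdm1 had 8 and 130 reads (log2 ratio 1.06).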
